A study of Mus musculus with 28 samples.

Results

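The contacts of a site on chromosome 11 that lies 101 kb before the annotated start of Gria1 were compared between mouse embryonic stem cells (ESC) carrying an inserted piece of a poised enhancer and wild-type ESC. The pair was taken by viewpoint and genotype, and it comprises 2 of the 13 libraries of the series that hold a profile, out of 28 samples listed. The TFBS library (1 library) came from E14Tg2a cells with a knock-in, within the topologically associating domain of Gria1, of the transcription factor binding sites (TFBS) of PE Sox1, the poised enhancer of Sox1. The WT library (1 library) came from E14Tg2a cells of wild-type genotype. Both were profiled as undifferentiated ESC, labelled 2i+LIF, while the growth protocol names medium with serum and LIF. How many clones or alleles carried the insert, its length and its exact position were not stated in the labels, so distances are those of the reference genome. A contact profile of DNA holds no expression, so the labelled cell type could not be checked against marker genes. With 1 library per genotype there is no replicate. Every difference below lies between these libraries, has no test, and is set against counting error and against other pairs of libraries.

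Poised enhancers control developmental genes, are silent in ESC and become active upon differentiation, and their sequence combines binding sites for transcription factors with a nearby CpG island. An enhancer acts on a distant promoter by contact between the chromatin at both sites, usually within the same domain, and contact frequency falls with genomic distance in any chromosome. Gria1 encodes an AMPA-type glutamate receptor subunit, the channel of fast excitatory synapses in neurons. The comparison addresses whether the insertion site met its surroundings, and the Gria1 promoter in particular, differently once the binding sites were inserted.

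The profiles came from circular chromosome conformation capture (4C-seq), which sequences and counts the restriction fragments ligated to a chosen fragment, the viewpoint. Only stretches that end at a cutting site can be seen, so the cutting sites decide which part of a promoter is measured. Promoter sequences (RefSeq, GRCm38.p6, from 250 bases before to 50 bases after a gene's start) were at hand for 4 of the 7 protein-coding genes within 1 Mb, and for 16 of all 28 annotated genes there. The sequences below are those of the protein-coding promoter that holds a cutting site and of the only one of those 16 genes' promoters that overlaps a fragment with reads, with CATG (cut by NlaIII) and GATC (cut by DpnII) in capitals. Both motifs read the same on either strand, and in Gm32649 the last base of a CATG is the first of a GATC.
Mfap3, chr11:57518415-57518714, plus strand: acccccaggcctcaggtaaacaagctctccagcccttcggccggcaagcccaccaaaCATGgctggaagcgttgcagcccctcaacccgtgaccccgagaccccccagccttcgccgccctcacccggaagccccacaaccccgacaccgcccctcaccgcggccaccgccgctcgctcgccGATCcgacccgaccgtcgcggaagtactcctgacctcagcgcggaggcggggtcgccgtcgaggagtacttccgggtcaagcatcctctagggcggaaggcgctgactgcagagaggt
Gm32649, chr11:56623522-56623821, minus strand: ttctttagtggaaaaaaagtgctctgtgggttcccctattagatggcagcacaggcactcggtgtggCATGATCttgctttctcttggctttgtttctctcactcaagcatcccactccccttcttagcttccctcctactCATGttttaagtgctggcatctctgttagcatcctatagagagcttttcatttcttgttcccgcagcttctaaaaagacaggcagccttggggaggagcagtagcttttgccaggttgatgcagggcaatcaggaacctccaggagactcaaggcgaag
The Mfap3 promoter held 1 CATG and 1 GATC, while those of Nmur2, Galnt10 and Sap30l held neither. No fragment with reads in either library touched the promoter of Mfap3. The Gm32649 promoter overlapped the fragment at chr11:56623755-56623963, which had 0 reads in the TFBS library and 28 reads in the WT library. Of 32851 promoters of 300 bases in the reference, 61.1% held CATG and 48.0% held GATC. All 34 ends of TFBS or WT fragments that fell inside one of these promoters lay beside CATG and 0 beside GATC.

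The TFBS library held 2313468 reads on 7550 fragments, against 7585737 reads on 5589 fragments in the WT library. In both, the fragment with most reads was chr11:56910361-56910414, 54 bases long, which took 75.5% of the TFBS reads and 90.6% of the WT reads. The fragment next to it, chr11:56909904-56910356, took 5.00% in TFBS and 2.14% in WT, and 83.5% and 93.5% of all reads lay within 10 kb. Chromosome 11 held 92.3% of the reads in TFBS and 95.6% in WT. Local reads, counted from 10 kb to 1 Mb on either side, numbered 130345 on 1238 fragments in TFBS and 101121 on 720 fragments in WT. They made up 5.63% of all TFBS reads and 1.33% of all WT reads. Shares below are therefore shares of local reads. On the deposited scale (RPM, reads scaled to library depth), every log2 ratio of TFBS over WT would lie 2.08 higher.

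A few fragments carried most of the local signal in each library. Fragments with at least 100 reads numbered 240 in TFBS and 142 in WT, and they held 88.4% and 89.3% of the local reads. The 10 tallest held 17.9% in TFBS and 24.2% in WT, and 50% of the local reads lay on 48 fragments in TFBS and on 32 in WT. The tallest in TFBS was chr11:56664558-56664772, inside the long noncoding RNA gene Gm46261, with 3802 reads in TFBS and 149 in WT. Next came chr11:57326317-57326507, close to the end of Gria1, with 3231 reads in TFBS and 98 in WT. In WT the tallest was chr11:56678461-56678557, with 15 reads in TFBS and 3736 in WT, followed by chr11:57591047-57591191 with 11 reads in TFBS and 3075 in WT. Neither of the last lies in an annotated gene. The other tall TFBS fragments were chr11:56695137-56695426 with 2283 reads in TFBS and 90 in WT, chr11:56944239-56944295 with 2265 in TFBS and 78 in WT, and chr11:57278651-57278695, inside Gria1, with 2121 in TFBS and 65 in WT. In WT there were also chr11:56893827-56893918 with 11 reads in TFBS and 2789 in WT, and chr11:56923976-56924778 with 5 in TFBS and 2397 in WT.

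The tall fragments of both libraries hardly coincided. Of the 240 in TFBS, 10 also had at least 100 reads in WT, and 224 (93.3%) had under 10% as many reads in WT as in TFBS. Of the 142 in WT, 126 (88.7%) had under 10% as many reads in TFBS as in WT. Among the 10 tall in both was chr11:56923789-56923897, 13.5 kb from the viewpoint on the Gria1 side, with 1392 reads in TFBS and 2866 in WT. It was also tall in the libraries with the other inserts of PE Sox1 at the same site, with 3132 reads in the CpG island (CGI) library and 3412 in the TFBS+CGI library. The low counts had a pattern of their own. Across the tall TFBS fragments the WT library had a median of 2.67% of the TFBS reads, with quartiles of 1.71% and 3.39%. On other chromosomes, the 200 tallest TFBS fragments recurred in WT at a median of 2.93%. In the other direction the medians were 0.578% for the tall local WT fragments and 0.357% for the 200 tallest WT fragments off the chromosome. The part of shared or carried-over reads in these low counts was not tested. Leaving out fragments with under 10% of the other library's reads removed 152 fragments with 625 reads from TFBS and 343 fragments with 3506 reads from WT. Of the 582 fragments that had reads in both libraries, 87 then stayed in both. The removal takes a fragment out of the library where it is low, so it widens differences between single fragments by construction.

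**Figure D1:**
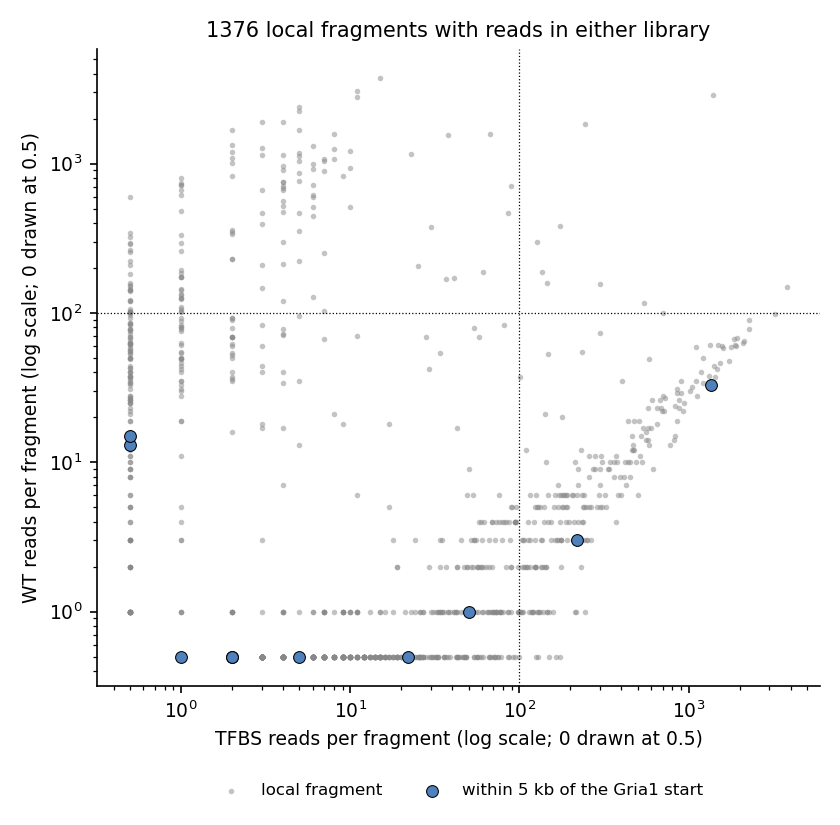
Reads per fragment in the TFBS library (horizontal) and the WT library (vertical), both on log scales with 0 drawn at 0.5, for the 1376 local fragments with reads in either library. Dotted lines mark 100 reads. Fragments within 5 kb of the Gria1 start are blue. Only 10 fragments lie beyond both lines, and most tall TFBS fragments lie along a band of low WT counts.

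At the Gria1 promoter the TFBS library had the larger share, and a single fragment carried it. The window of 5 kb on each side of the start (chr11:57006571-57016571) held 1662 reads on 8 fragments in TFBS, 1.28% of local reads, against 65 reads on 5 fragments in WT, 0.0643%. The share was 19.8-fold higher in TFBS, a log2 ratio of 4.31 (95% interval 3.95 to 4.69). The fragment chr11:57009156-57009459, 2.26 kb before the start, had 1361 of these reads in TFBS and 33 in WT. It thus held 81.9% of the TFBS reads of the window, and its WT reads were 2.42% of its TFBS reads, close to the median over tall fragments. Inside the gene, 2.51 kb past the start, chr11:57014030-57014128 had 219 reads in TFBS and 3 in WT. Another fragment, chr11:57014547-57014836, had 50 reads in TFBS and 1 in WT. In the TFBS+CGI library that fragment had 674 of the 996 reads of the window, and it held all 6 reads of the CGI library there. The fragment that carried the TFBS window, chr11:57009156-57009459, had 4 reads in TFBS+CGI and 0 in CGI. The whole window held 0.239% of local reads in TFBS+CGI and 0.0116% in CGI. The WT library had fragments of its own in the window, chr11:57006824-57007425 with 0 reads in TFBS and 13 in WT, and chr11:57015479-57015656 with 0 in TFBS and 15 in WT. These were the only WT reads left when fragments under 10% of the other library were removed. The ratio then rested on 1662 reads in TFBS and 28 in WT, and was 44.7-fold. That rise follows from the removal, which took WT reads where TFBS was high and no TFBS reads in this window.

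The direction changed with the width of the window. With 10 kb on each side of the start, TFBS had 2194 reads, 1.68%, and WT had 2520 reads, 2.49%, for a log2 ratio of -0.57. With 25 kb it was -0.36 (3.80% in TFBS and 4.87% in WT), and with 50 kb it was 0.24 (10.4% and 8.81%). The next 10 kb into the gene held 1803 reads in TFBS and 4184 in WT. Its tallest WT fragment, of 2246 reads, held more reads than the whole promoter window in TFBS, and made up 89.1% of the WT reads within 10 kb of the start. Counted as fragments with reads at matched depth, the window of 5 kb held 7.67 fragments in TFBS, expected at the number of local WT reads, against 5 in WT, and its share of local fragments gave a log2 ratio of -0.10. With fragments under 10% of the other library left out as well, it was 0.47. So the sign held for reads in the window of 5 kb, and not for 10 or 25 kb on each side, nor for the number of all fragments with reads.

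The local reads were split between the sides of the viewpoint almost alike in both libraries. The Gria1 side held 62134 reads in TFBS, 47.7% (47.4% to 47.9%), and 48023 reads in WT, 47.5% (47.2% to 47.8%), a difference of 0.18 percentage points that lies within counting error. This equality was made of opposite differences near and far. From 10 to 100 kb, 67.5% of the TFBS reads lay on the Gria1 side (67.0% to 68.0%), against 43.3% of the WT reads (42.8% to 43.8%). From 500 to 1000 kb it was the reverse, with 28.1% of the TFBS reads and 56.5% of the WT reads on the Gria1 side. The order had already turned at 100 to 200 kb, where 42.2% of the TFBS reads and 60.1% of the WT reads lay on the Gria1 side.

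Near the viewpoint the larger difference was on the side away from Gria1. There, 10 to 100 kb held 10.1% of local reads in TFBS and 21.3% in WT (log2 ratio -1.07, -1.10 to -1.04), and on the Gria1 side 21.0% in TFBS and 16.2% in WT (0.38, 0.35 to 0.40). Of the 9 windows of 10 kb away from Gria1, TFBS had the lower share in 8. The exception, at 60 to 70 kb, had 876 reads in TFBS and 332 in WT. On the Gria1 side TFBS had the higher share in 4 of 9 windows, led by 70 to 80 kb with 3923 reads in TFBS and 146 in WT. The asymmetry was as large without the tallest fragments. Without the 5 tallest of each side in each library, 66.7% of the TFBS reads and 40.4% of the WT reads at 10 to 100 kb lay on the Gria1 side. Without fragments under 10% of the other library it was 67.8% in TFBS and 42.5% in WT. The number of fragments at matched depth was instead split almost evenly, with 50.3% of fragments on the Gria1 side in TFBS and 53.2% in WT. In the other libraries of this viewpoint, 69.6% of the reads at 10 to 100 kb lay on the Gria1 side in CGI and 47.4% in TFBS+CGI, so the TFBS value lay between values seen with other inserts. The CGI library was sparse, with 50% of its local reads on 5 fragments, which limits it as a yardstick.

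**Figure D2:**
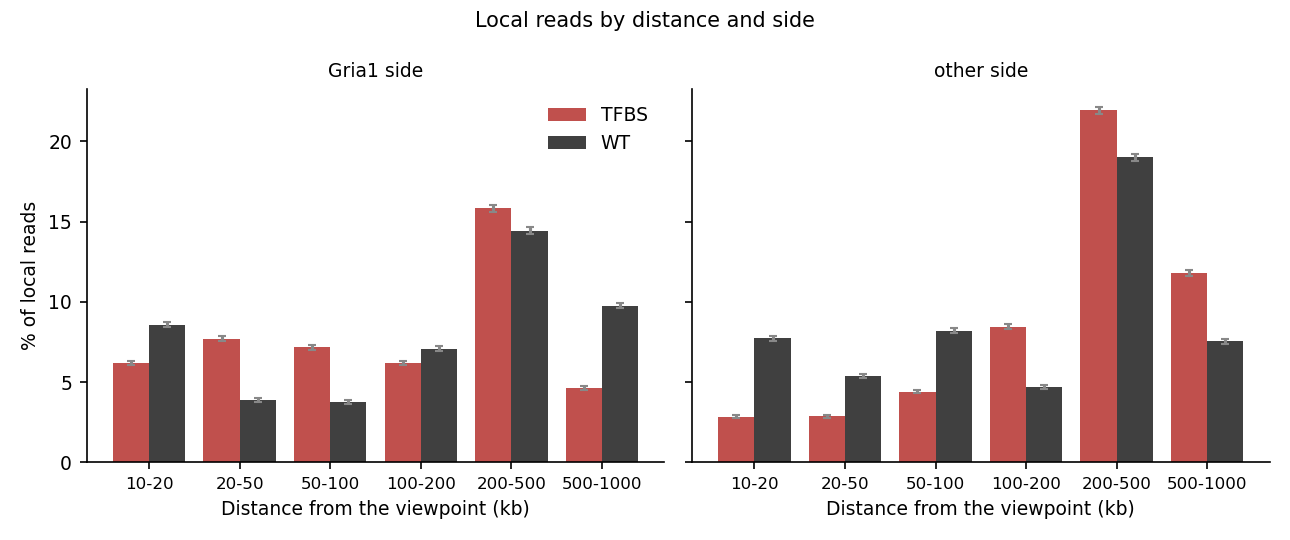
Share of local reads (%) by distance from the viewpoint (kb), on the Gria1 side (left) and the other side (right), in the TFBS library (red) and the WT library (grey). Bars are 1 library each and error bars are 95% Wilson intervals, which cover counting error only. TFBS exceeds WT at 20 to 100 kb and 200 to 500 kb on the Gria1 side and at 100 to 1000 kb on the other side.

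Contacts thinned with distance in both libraries, and less steeply in TFBS. From 10 to 20 kb lay 9.02% of local reads in TFBS and 16.3% in WT, and from 10 to 100 kb 31.2% and 37.5%, a difference of -6.33 points. That deficit came from 10 to 20 kb, where TFBS+CGI had 9.33% of its local reads and the sparse CGI library 18.2%. At 20 to 50 kb the share was 10.6% in TFBS and 9.23% in WT, and at 50 to 100 kb 11.6% and 12.0%. At 100 to 200 kb it was 14.6% in TFBS and 11.8% in WT, at 200 to 500 kb 37.8% and 33.4%, and at 500 to 1000 kb 16.4% and 17.3%. On log scales the share per kb had a slope of -0.74 in TFBS and -0.85 in WT over 6 distance bins. The slope was steeper in TFBS on the Gria1 side, at -0.98 in TFBS and -0.81 in WT, and shallower on the other side, at -0.49 and -0.88. The slopes of the other inserts, -1.03 in the sparse CGI library and -0.76 in TFBS+CGI, lay on either side of that of WT. The median distance of a local read was 215 kb in TFBS and 211 kb in WT.

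In windows of 10 kb the libraries differed nearly everywhere. Of 166 windows with at least 20 reads in either library, 82 had a share more than 2-fold higher in TFBS (49.4%) and 50 more than 2-fold lower (30.1%), or 79.5% either way, with counts under 3 reads set to 3. Differences past 8-fold were found in 71 windows. On the Gria1 side, 37 of 77 windows were higher in TFBS and 23 lower, and on the other side 45 of 89 were higher and 27 lower. The median log2 ratio was 0.94 and the SD over windows was 3.15. The WT reads were gathered on fewer fragments, and the part of this in the median was not tested. Differences of this size were also seen with the other inserts: 73.7% of the windows were past 2-fold for TFBS+CGI over WT, and 82.5% for the sparse CGI library over WT. These comparisons share the WT library. On the deposited scale 116 windows were higher and 20 lower.

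The windows with most reads show which stretches carried each profile. The highest window was the same in both libraries: 10 to 20 kb on the Gria1 side held 8045 reads in TFBS (6.17%) and 8682 in WT (8.59%). In TFBS it was followed by 240 to 250 kb on the other side, over Gm46261, with 7170 reads in TFBS and 278 in WT. The windows at 20 to 30 kb and 30 to 40 kb on the Gria1 side had 4517 and 4091 reads in TFBS, against 987 and 350 in WT. At 410 to 420 kb, the end of Gria1, there were 4511 reads in TFBS and 151 in WT. In WT the runners-up lay on the other side: 10 to 20 kb had 3712 reads in TFBS and 7807 in WT, and 50 to 60 kb had 1322 in TFBS and 3491 in WT. The window at 230 to 240 kb, directly beside the tall TFBS window, had 512 reads in TFBS and 5260 in WT. Thus the highest distal peak of both libraries lay at nearly the same distance but on neighbouring windows. At 680 to 690 kb on the Gria1 side, outside annotated genes, there were 126 reads in TFBS and 3700 in WT.

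The widest ratios came from windows with 1 or few fragments. Highest in TFBS were 870 to 880 kb on the other side, inside Nmur2, with 264 reads on 1 fragment in TFBS and 3 in WT (log2 ratio 6.09, 4.53 to 8.38), then 490 to 500 kb there with 319 in TFBS and 5 in WT, and 440 to 450 kb with 619 and 10. On the Gria1 side, 970 to 980 kb had 783 reads in TFBS and 13 in WT, and 340 to 350 kb, inside Gria1, had 531 in TFBS and 9 in WT. Lowest in TFBS were, on the Gria1 side, 790 to 800 kb in Galnt10 with 5 reads in TFBS and 863 in WT (log2 ratio -7.80), and 670 to 680 kb with 8 in TFBS and 602 in WT. The window at 480 to 490 kb had 47 reads in TFBS and 1506 in WT, and 920 to 930 kb on the other side had 1 in TFBS and 173 in WT. In 5 of the windows with the widest ratios the lower library had reads on a single fragment.

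**Figure D3:**
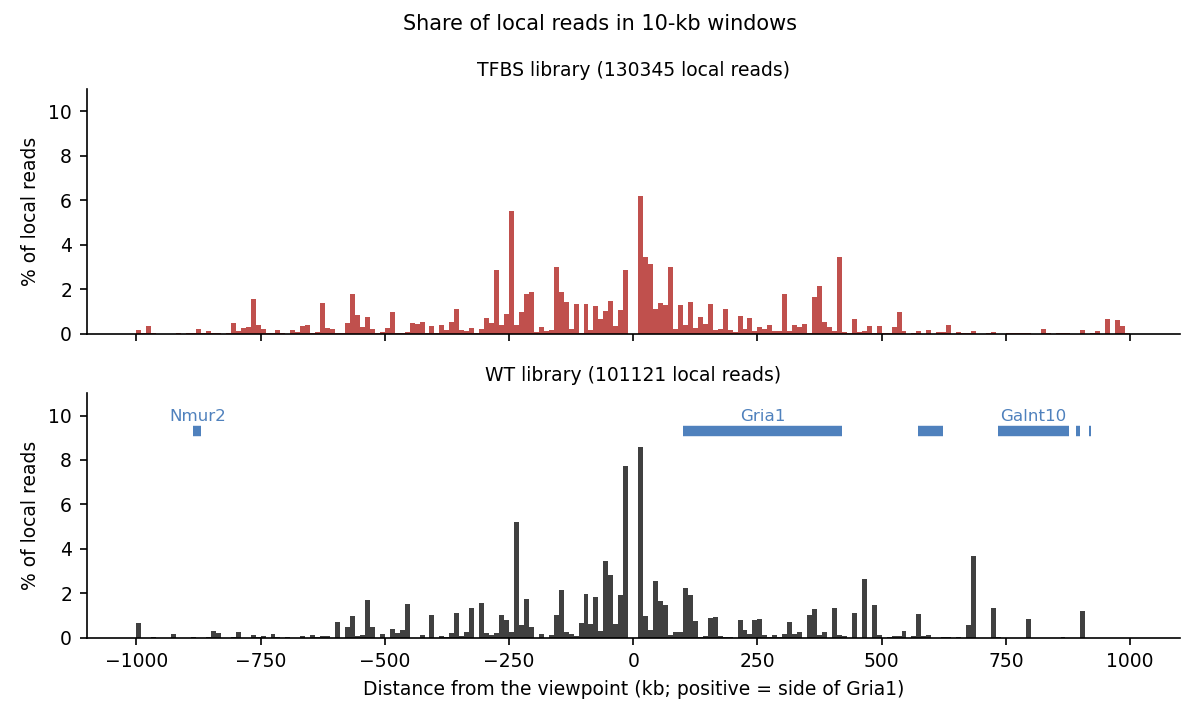
Share of local reads (%) in windows of 10 kb against distance from the viewpoint (kb, positive on the Gria1 side), in the TFBS library (top, 130345 local reads) and the WT library (bottom, 101121 local reads). Blue bars are protein-coding genes. Both profiles are highest beside the viewpoint and have a further peak near 240 kb on the other side, in adjacent windows.

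Pooling to 50 kb removed part of the difference. Of 40 windows, 11 were more than 2-fold higher in TFBS (27.5%) and 9 lower (22.5%), 50.0% either way, and the same share was past 2-fold for TFBS+CGI over WT. Close to the viewpoint, the Gria1 side up to 50 kb held 13.9% of local reads in TFBS and 12.5% in WT, and the other side 5.72% in TFBS and 13.1% in WT. The stretch at 200 to 250 kb on the other side held 10.5% in TFBS and 8.27% in WT, so the neighbouring peaks at 10 kb merged into a log2 ratio of 0.35. At 250 to 300 kb it was 5.28% in TFBS and 2.39% in WT. The next 50 kb on the Gria1 side, up to 100 kb, held 7.17% in TFBS and 3.77% in WT, and the stretch at 50 to 100 kb on the other side 4.41% in TFBS and 8.21% in WT. At 100 to 150 kb on the Gria1 side, where Gria1 starts, there was 3.23% in TFBS and 5.04% in WT.

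Far from the viewpoint on the Gria1 side, 3 adjoining windows of 50 kb had lower shares in TFBS. From 650 to 700 kb there were 223 reads in TFBS and 4319 in WT, a log2 ratio of -4.64 (-4.84 to -4.45). From 700 to 750 kb there were 79 reads in TFBS and 1383 in WT, and from 750 to 800 kb 79 in TFBS and 864 in WT. A single fragment held 71.2%, 96.9% and 99.9% of the WT reads of these windows. Windows on either side of this stretch went the other way, with 660 reads in TFBS and 71 in WT at 600 to 650 kb, and 270 in TFBS and 20 in WT at 800 to 850 kb. The last, at 950 to 1000 kb, had the highest ratio, with 2068 reads on 8 fragments in TFBS and 38 on 3 in WT (5.40, 4.94 to 5.90).

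**Figure D4:**
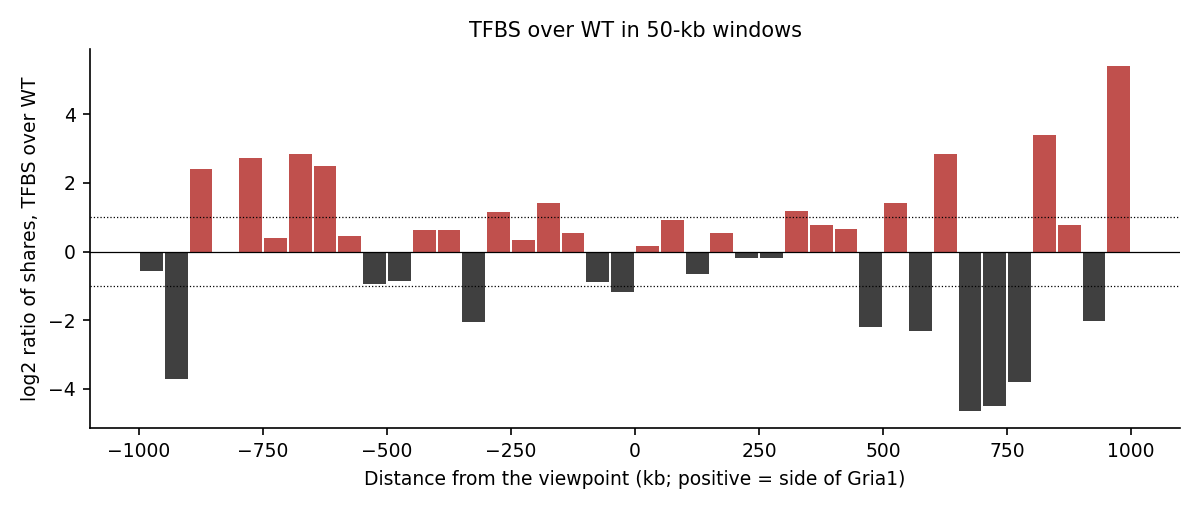
Log2 ratio of the shares of local reads, TFBS over WT, in the 40 windows of 50 kb, against distance from the viewpoint (kb, positive on the Gria1 side). Red bars are higher in TFBS and grey bars lower, and dotted lines mark 2-fold. The longest bars lie at 300 kb or more from the viewpoint, on both sides.

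Among the 7 protein-coding genes within 1 Mb, Gria1 itself held the most reads. Its span with 5 kb on each side held 27928 reads on 271 fragments in TFBS, 21.4% of local reads (21.2% to 21.6%). In WT it held 16272 on 156 fragments, 16.1% (15.9% to 16.3%), a log2 ratio of 0.41. By the number of fragments at matched depth the log2 ratio was 0.01, or 0.10 with fragments under 10% of the other library left out. The share was also above that of WT with the other inserts, at 22.6% in TFBS+CGI and 34.0% in the sparse CGI library. In CGI 1 fragment held 63.8% of the reads of the span. The excess of TFBS reads over WT lay towards the end of the gene. In steps of 50 kb from its start the log2 ratios were -0.65, 0.54, -0.23, 0.12, 1.12 and 0.76, and the last 18.7 kb were at 1.25, with 4637 reads in TFBS and 1510 in WT. That last stretch rested mostly on 1 fragment in each library, which held 69.7% of its TFBS reads and 78.1% of its WT reads. At 200 to 250 kb into the gene there were 3654 reads on 45 fragments in TFBS and 1306 on 21 in WT.

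The other genes lie beyond 500 kb and had few reads. Of the 7 genes, 4 were more than 2-fold higher in TFBS (57.1%) and 2 lower (28.6%), or 85.7% either way, beside 79.5% of all windows of 10 kb. By the number of fragments at matched depth none of the 5 genes beyond 500 kb with fragments in both libraries was past 2-fold, with log2 ratios of 0.67 for Nmur2, 0.41 for Mfap3, -0.06 for Fam114a2, 0.33 for Galnt10 and -0.72 for Sap30l. With fragments under 10% of the other library left out as well, Nmur2 was at 1.50 and Mfap3 at 1.05. Those values are set in part by the removal itself, and each of these 2 genes had only 3 WT fragments before it. Nmur2, which encodes a receptor of the neuropeptide neuromedin U, had 322 reads in TFBS and 54 in WT (log2 ratio 2.21). Sap30l, related to a subunit of the Sin3 histone deacetylase corepressor, had 179 in TFBS and 13 in WT (3.42, 2.61 to 4.35). Mfap3, a gene of a microfibril-associated glycoprotein, had 186 in TFBS and 55 in WT (1.39). Hand1, which lies 918 kb away, encodes a basic helix-loop-helix factor needed in heart and placenta development. Its span had 24 reads on 2 fragments in TFBS and 0 in WT, 6.21-fold higher with WT set to the floor of 3 reads. The overlapping span of the noncoding gene Gm32915 had the same 24 reads. Fam114a2 had 369 reads in TFBS and 1304 in WT (-2.19, -2.36 to -2.02), over a span that overlaps that of Mfap3. Galnt10, a transferase that starts the sugar chains of mucin-type glycoproteins, had 426 in TFBS and 962 in WT (-1.54, -1.71 to -1.38). In Fam114a2 and Galnt10, 1 fragment held 82.4% and 89.7% of the WT reads, and in Nmur2 and Sap30l 1 fragment held 82.0% and 97.8% of the TFBS reads. On the deposited scale Galnt10 turned to 0.54. Gm46261, a noncoding gene on the other side, had 13164 reads on 54 fragments in TFBS, 10.1% of local reads, against 2461 on 31 fragments in WT, 2.43%. Its log2 ratio was 2.05 (1.99 to 2.12), and 13 of its fragments in TFBS and 3 in WT had at least 100 reads. The span held 4.68% of local reads in the sparse CGI library and 3.88% in TFBS+CGI. The tallest WT fragment, chr11:56678461-56678557, lies just outside the span of Gm46261. In the window of 50 kb that holds the tallest fragments of both libraries, the log2 ratio was 0.35.

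How alike the profiles were depended on the scale. The overlap, which is the sum over windows of the smaller of both shares, was 6.92% over single fragments, 47.7% over windows of 10 kb, 69.8% at 50 kb, 76.8% at 100 kb and 83.9% at 200 kb. In the other 5 pairs of libraries of this viewpoint it ran from 4.58% to 14.8% over fragments and from 50.0% to 74.4% at 50 kb, so TFBS and WT lay within that range. These pairs share libraries. At 50 kb the lower end came from pairs with the sparse CGI library, and the pairs without it had 73.0% and 74.4%. At 200 kb the overlap of TFBS and WT exceeded that of the other 5 pairs, which had 63.7% to 82.9%. In 8 pairs of libraries from the other viewpoints of the series the overlap was 12.1% to 21.5% over fragments and 80.2% to 87.6% at 50 kb. Most of these pairs combine the same few Gata6 promoter libraries, labelled AntNPC and not ESC, so they are not independent. The others compare a deletion with wild type. TFBS and WT thus overlapped less than each of those 8 pairs at both scales. Counted by fragments at matched depth in place of reads, their overlap at 50 kb was 93.7%, and 86.5% with fragments under 10% of the other library left out.

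**Figure D5:**
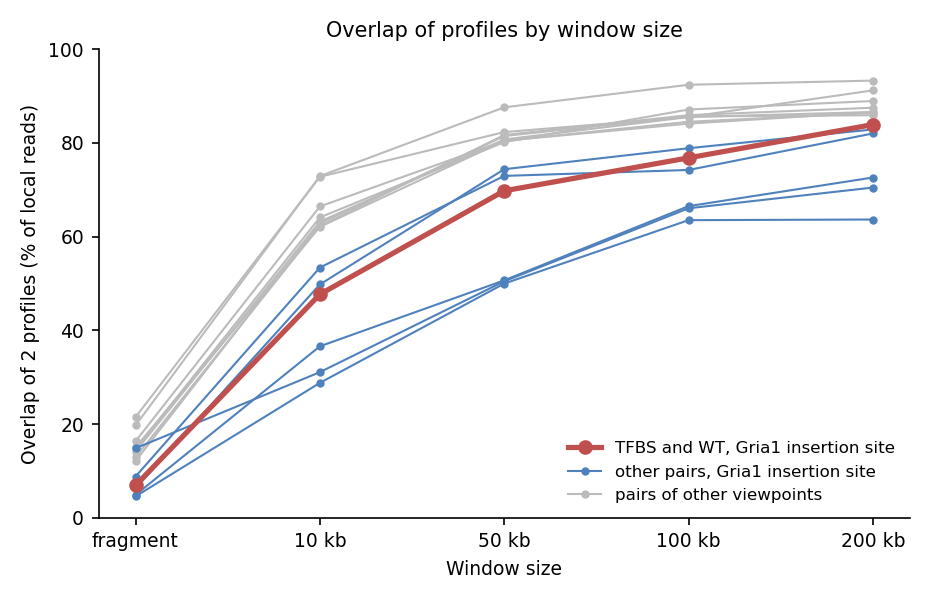
Overlap of profiles (% of local reads) over single fragments and windows of 10, 50, 100 and 200 kb. The red line is TFBS and WT, blue lines are the other 5 pairs of the same viewpoint, and grey lines are 8 pairs from other viewpoints, most of them from AntNPC libraries. The red line climbs from 6.92% to 83.9% and lies under the grey lines throughout.

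At matched depth TFBS still had more fragments. At 101121 local reads, the number in WT, 1185 local fragments were expected in TFBS against the 720 of WT, a ratio of 1.65, where 1.72 was observed. This came with 3.28 times as many reads in all in the WT library. The low counts described above are part of these numbers, since after their removal 1086 fragments were left in TFBS and 377 in WT. Beyond 1 Mb on chromosome 11 there were 73107 reads in TFBS and 58775 in WT. From 1 to 2 Mb on the side away from Gria1 lay 5.76% of the chromosome's reads beyond 10 kb in TFBS and 1.96% in WT, and on the Gria1 side 2.83% and 2.53%. On the side away from Gria1 TFBS was also higher from 2 to 5 Mb, with 2.01% in TFBS and 1.15% in WT. On that side the order turned farther out, with 1.68% in TFBS and 2.48% in WT at 5 to 10 Mb, and 10.2% and 13.3% beyond 10 Mb. On the Gria1 side TFBS was lower from 2 to 5 Mb, with 0.493% in TFBS and 3.52% in WT. There it was higher at 5 to 10 Mb, with 2.88% in TFBS and 1.46% in WT, and beyond 10 Mb lay 10.1% and 10.3%.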

How the data were processed

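Circular chromosome conformation capture libraries (4C-seq; cut with NlaIII, then DpnII, per the labels' protocols) were analysed for 1 TFBS and 1 WT library of E14Tg2a ESC. The authors deposited 1 value per restriction fragment in RPM (reads scaled to library depth), per the file headers. The submitters' processing notes name HISAT2, with no version, and mm10. All values were whole multiples of the smallest one in their library (100% within a tolerance of 0.1), so reads were recovered by division, 2313468 in TFBS and 7585737 in WT. With 1 library per genotype no count test was run.

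Local reads lie within 1 Mb of the viewpoint's middle, with 10 kb on each side left out. Shares have 95% Wilson intervals and log2 ratios have exact (Clopper-Pearson) conditional intervals. PCR products carried no molecular identifiers, so intervals and the floor of 3 reads cover counting error only. Matched depth is the expected number of fragments when TFBS reads are drawn down to the WT number. Code was tested on simulated data.

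Named were all protein-coding genes within 1 Mb, the 5 fragments with most reads in each library, all fragments of the promoter window, the 5 windows of 10 kb and of 50 kb with the largest share in each library, and those with the widest ratios (5 each way at 10 kb, with at least 100 reads in the higher library, and 3 each way at 50 kb). Further fragments and genes were named after their values were seen. The members, lists and windows were chosen with earlier results of these data known. Alternatives were another scale, exclusion, range, minimum, cap, window size and offset, and fragments in place of reads. Python 3.11.15, pandas 2.3.3, numpy 2.4.6 and scipy 1.17.1 were used.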

Additional observations from a re-analysis of the deposited data

Results flagged for a closer look

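The donor of the insert, the surroundings of Sox1 on chromosome 8, lies outside the comparison and had reads in the TFBS library. Within 50 kb of Sox1 there were 717 reads on 2 fragments in TFBS, a number equal to 0.550% of its local reads (0.511% to 0.592%), against 22 reads in WT, 0.0218%. The fragment chr8:12430220-12432553, 30.7 kb past the end of Sox1, held 709 of them and was the fifth tallest of 258 on that chromosome in TFBS. Its WT reads were 3.10% of its TFBS reads, near the 2.93% median of tall fragments off chromosome 11. It had 3 reads in the TFBS+CGI library and 0 in CGI. Reads of an inserted copy and of the donor copy cannot be told apart by position, and the origin of these reads was not tested.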

How the results depend on the processing

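No paired analysis was possible because each genotype has 1 library and no test was run. Ratios at the Gria1 promoter kept their sign under 9 of 11 alternatives. Several of these left the reads of the window as they were and altered only the totals, so they do not test the window itself. They were the other scales, 25 kb left out, the range of 500 kb, the cap on reads per fragment and removal of the tallest fragments. The log2 ratio of 4.31 became 6.39 on the deposited RPM scale, 6.44 as a share of the chromosome, and 5.48 with fragments under 10% of the other library left out. It turned to -0.57 with 10 kb on each side of the start and to -0.10 for the number of fragments at matched depth, or 0.47 for that number without those low fragments. This last setting and the removal of low fragments were chosen after seeing the data, and the removal is based on the reads being compared. The difference of 0.18 points in the Gria1 side share has no stable sign. It was -1.36 with 25 kb left out, 5.90 within 500 kb, -0.28 without the tallest fragment of each library, -0.13 for fragments and -1.76 for fragments without the low ones. The deficit of TFBS at 10 to 100 kb kept its sign in all 8 settings: against -6.33 points it was -1.65 with 25 kb left out, -8.06 within 500 kb, -5.36 with a cap, -6.89 without the tallest fragments, -1.18 for fragments, -4.42 for fragments without the low ones and -6.73 without the low ones. In the main setting it lay at 10 to 20 kb (-7.29 points), with 1.35 points at 20 to 50 kb and -0.40 at 50 to 100 kb. The overlap at 50 kb, 69.8%, was 67.4% with 25 kb left out, 75.1% within 500 kb, 69.4% with at least 10 reads per fragment, 70.6% with a cap, 68.4% without the tallest fragments, 71.4% with shifted windows, 93.7% for fragments, 86.5% for fragments without the low ones and 68.4% without the low ones. Windows of 10 kb past 2-fold, 82 higher and 50 lower, became 116 and 20 on both other scales, 43 and 24 within 500 kb (fewer windows), 9 and 3 for fragments, and 19 and 13 for fragments without the low ones. Windows of 50 kb, 11 and 9, became 31 and 4, 3 and 3, 1 and 0, and 4 and 2 in the same order. Without low fragments the counts in reads were 83 and 50 at 10 kb and 11 and 9 at 50 kb. Among genes, Galnt10 turned to 0.54 on the RPM scale, 0.59 as a share of the chromosome and 0.33 for fragments, and Sap30l turned to -0.72 for fragments and -0.47 for fragments without the low ones. The cause of these changes was not tested.

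Of 65 WT reads at the promoter, 33 lay on 1 fragment. The libraries differ in total depth, and with 1 of each, no value shows what a second WT library would give.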
